A study of Mus musculus with 30 samples.

Results

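CGR8 mouse embryonic stem cells at 48 h of cycloheximide were compared with the same line at 5 h of cycloheximide, over all genes. The comparison uses 6 of the 30 RNA-seq libraries of the series, 3 at each time, which were picked by their column labels. It asks which of the changes present at 5 h had gone back, stayed or grown by 48 h. In the series, CGR8 and the fibroblast line NIH/3T3 were each sampled at 0, 1, 2, 5 and 48 h in 3 replicates. Both lines carried an SLT knock-in at ROSA26, controls included. CGR8 was grown at 37 °C in N2B27 medium with 2i and LIF, and cycloheximide was used at 0.1 µg/mL. NIH/3T3 was grown in DMEM with serum. The labels give the drug dose also for the 0 h samples, which are the untreated starting point of the time course. Nothing in the labels says whether replicates A, B and C came from separate cultures, so the p-values measure the spread between these libraries, which may be technical.

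Cycloheximide blocks the elongation step of translation on cytosolic ribosomes. Proteins with short half-lives are lost first, among them transcription factors, repressors and factors that take part in mRNA decay, so mRNA levels move soon after the drug is added. The 2i inhibitors act on MEK and on glycogen synthase kinase, and with LIF they hold mouse stem cells in the naive state, in which Klf4, Esrrb and Tfcp2l1 are high. The endoplasmic reticulum (ER) answers an excess of unfolded proteins with the unfolded protein response, and a shortage of amino acids is met by ATF4, itself made under translational control.

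The 5 h libraries held 24.4, 22.5 and 25.8 M counts (M, mega) and the 48 h libraries 26.8, 27.3 and 24.6 M. Levels are given as CPM, counts per M of the library size, scaled by the TMM method of edgeR. Stem cell genes were high at both times, the 26 of naive pluripotency summing to 11667 to 13127 CPM at 5 h and 13996 to 14215 at 48 h. Zfp42 lay between 1382 and 1480 CPM in the 6 libraries, but other markers moved in both directions. From 5 h to 48 h the log2 changes were 1.27 for Klf4, 1.08 for Esrrb, 0.78 for Tfcp2l1 and 0.64 for Sox2. They were -1.45 for Dppa5a, -1.07 for Tdgf1, -0.52 for Pou5f1 and -0.22 for Nanog. The 11 fibroblast and feeder markers summed to 6.52 to 8.83 CPM at 5 h and 8.35 to 9.71 at 48 h, and 8 of them, Col1a1 among them, were under 1 CPM in each of the 6 libraries. Primitive endoderm markers summed to 294 to 375 CPM at 0 h, 238 to 289 at 5 h and 133 to 143 at 48 h, with Gata6 and Sox17 under 1 CPM. Single members moved both ways from 5 h to 48 h, 5 of the 9 tested upward and 4 downward (median log2 0.09). Gata4 rose by 2.08 and Dab2 fell by 2.16. Neural markers summed to 159 to 190 CPM at 0 h, 92.5 to 106 at 5 h and 193 to 215 at 48 h, with Neurog2 and Dcx under 1 CPM. In bulk RNA, a change in the number of cells of a type and a change in RNA per cell cannot be told apart. Replicate A at 48 h lay apart from B and C for several genes named below, and replicate A at 5 h showed the steepest relation of level to transcript length.

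Most of the acute response was reversed. Of 15933 genes tested with edgeR's quasi-likelihood test, 9157 (57.5%) differed between 48 h and 5 h at an adjusted p under 0.05 and are referred to as called. Of these, 4602 (28.9%) were higher and 4555 (28.6%) lower at 48 h, and 3542 (22.2%) were called with a change of at least 2-fold, 1699 higher and 1843 lower. In 63.0% of the genes tested the 3 libraries of one time did not overlap those of the other. At 5 h, 2513 genes (15.8%) were called against 0 h with a change of at least 2-fold, and these are the acute genes. At any size, 8302 genes (52.1%) were called at 5 h against 0 h, 3975 (24.9%) higher and 4327 (27.2%) lower. By 48 h, 4429 genes (27.8%) were called against 0 h, 1937 (12.2%) higher and 2492 (15.6%) lower.

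Among the 1196 acute genes that were higher at 5 h, 975 (81.5%) were called lower again at 48 h than at 5 h. Of those 975, 815 were not called against 0 h any more, 57 were still above 0 h and 103 had gone below it. A further 88 (7.4%) had persisted, that is, were not called between 5 h and 48 h and were still called above 0 h. For 8 genes the rise had deepened, and 125 fell in no class. Among the 1317 acute genes lower at 5 h, 1025 (77.8%) had risen again. Of these, 716 were not called against 0 h, 181 were still below it and 128 were above it. Persistence was found for 201 (15.3%) and a deeper fall for 26 (2.0%), with 65 in no class. The median log2 fold change of the reverted genes that were lower at 5 h was -1.29 at 5 h against 0 h and 1.27 at 48 h against 5 h.

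The 3 contrasts share their libraries: a 5 h level that is high by chance makes both a rise and a reversal. Acute genes were also chosen as those called at 2 h against 0 h, whatever the size of the change. Of these, 2626 of 3174 (82.7%) moved back between 5 h and 48 h, 270 had persisted and 55 had deepened. Genes called at 5 h, likewise of any size, had reverted in 6097 of 8302 cases (73.4%). The 2 h contrast compares no 5 h or 48 h library, but its fit shares their scaling and estimate of spread, so it is not fully separate. The deepened count of 34 was 19 without replicate A at 5 h. With genes restricted to a mean of at least 5 CPM, 974 of 1084 acute genes (89.9%) had reverted and 9 had deepened.

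**Figure D1:**
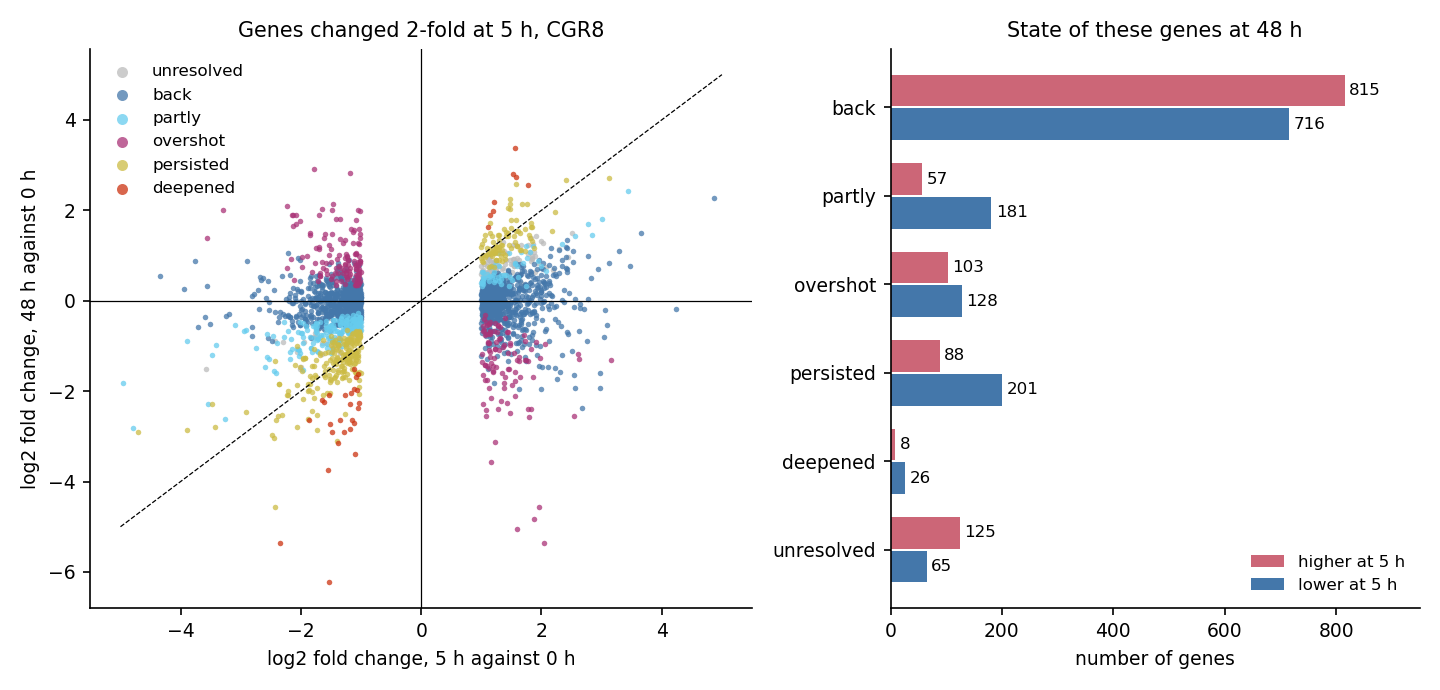
Fate of the acute genes in CGR8. Left, log2 fold change at 5 h against 0 h (x axis) and at 48 h against 0 h (y axis), 1 point per acute gene coloured by class, with a dashed line where both are equal; right, number of acute genes per class and direction at 5 h. Most points lie near 0 on the y axis, 975 of the 1196 genes higher at 5 h and 1025 of the 1317 lower at 5 h having moved back.

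Genes that returned to the 0 h level had moved by large factors in both directions. Dmrt1, a transcription factor of the germ line, stood at 75.1, 71.4 and 64.8 CPM at 5 h and at 20.6, 20.1 and 18.7 CPM at 48 h, with 20.7, 22.2 and 17.9 at 0 h. Its 48 h levels all lay below the 5 h levels and within the 0 h range, a log2 change of -1.83 (SE 0.11, edgeR adjusted p = 1.1e-08). Arhgap23, a GTPase activating protein, went the other way, from 41.6, 44.8 and 40.0 CPM at 0 h to 8.43, 12.1 and 9.17 at 5 h and 46.1, 41.5 and 44.2 at 48 h. Slc17a9, a vesicular nucleotide transporter, and Ptprj, a receptor tyrosine phosphatase, did the same, with log2 rises of 2.33 and 1.91 after 5 h. Bc1, a short noncoding RNA, and Tex21 changed by -3.63 and -1.79 on the log2 scale.

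Txnip, an arrestin-like inhibitor of thioredoxin and of glucose uptake, went most of the way. It stood at 269, 244 and 266 CPM at 5 h and at 77.6, 107 and 106 CPM at 48 h, against 77.8, 74.6 and 80.0 at 0 h. Replicate A at 48 h was within the 0 h range and B and C were above it, and the gene was still called above 0 h (log2 0.32, edgeR adjusted p = 0.0442). Zfp110 and Ccdc137 likewise stayed above 0 h, by 0.33 and 0.52 in log2. Ttyh2 and Zdhhc23, the latter a palmitoyl transferase, had recovered in part from log2 falls of -2.57 and -2.27 at 5 h and remained at -0.73 and -0.46 against 0 h.

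The overshooting genes included members of the Hedgehog and Notch pathways. Gli1, the transcription factor and read-out of Hedgehog signalling, fell from 18.4, 13.2 and 19 CPM at 0 h to 4.53, 3.38 and 4.78 at 5 h and stood at 33.5, 30.7 and 34.9 at 48 h. Every 48 h library was above every 0 h and 5 h library (log2 2.96 against 5 h, SE 0.16, edgeR adjusted p = 1e-08). Gli1 overlaps Arhgap9 on the other strand, and whether the counting used strand is not stated, so reads of the pair may be mixed. Jag2, a Notch ligand, went from 3.33, 2.26 and 2.80 CPM at 5 h to 21.9, 21.1 and 22.6 at 48 h, above its 6.05 to 9.08 CPM at 0 h. Hif3a and Dpysl5 rose by 2.89 and 2.57 in log2 from their 5 h lows. In the other direction, Hal, the histidine-degrading enzyme, went from 15, 18 and 15.4 CPM to 1.91, 1.94 and 2.02, below its 4.18 to 6.01 CPM at 0 h, and Myo1f and Ccdc160 fell by 2.46 and 2.89 in log2.

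The largest rise of a gene above 10 CPM was that of Ror1, a receptor for Wnt5a. It stood at 0.488, 1.47 and 1.20 CPM at 5 h and at 10.4, 19.5 and 20.8 CPM at 48 h (log2 4.0, SE 0.30, edgeR adjusted p = 7.96e-08). Replicate A at 48 h was the lowest of its group for Ror1, for the epithelial splicing factor Esrp1, for the transcription factors Grhl2 and Lef1 and for the co-receptor Tgfbr3, although each 48 h library was above each 5 h library and the 5 calls were kept with that library left out. Esrp1 rose from 5.33, 6.92 and 4.78 to 27.4, 45.1 and 47.3 CPM, Grhl2 by 3.00 and Tgfbr3 by 3.06 in log2. Sfmbt2, a Polycomb protein of an imprinted locus, rose by 2.86, and Ptpn14, Spn and Ptprv by 2.64 to 2.70.

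The largest fall was that of Ly6a, known as Sca-1, a surface protein that interferon raises. It stood at 13.5, 12.5 and 11.5 CPM at 5 h, within its 0 h range of 11.3 to 17.0, and at 0.147, 0.485 and 0.411 CPM at 48 h. Those 48 h levels rest on 4, 13 and 10 reads, and the ratio of 5 h to 48 h levels was 36.2, with an exact 95% interval for counting error of 24.7 to 55.2. Gpx2, a glutathione peroxidase, fell from 46.4, 45.0 and 29.7 to 4.25, 3.02 and 4.11 CPM. On the log2 scale, the changes were -3.16 for Fabp3, a fatty acid binding protein, -3.04 for Khdc3, a maternal-effect protein of eggs and early embryos, and -3.67 for Nlrp4f, a gene active in oocytes. They were -3.56 for Ppp1r14d, -2.78 for Wfdc2 and -2.85 for Fam25c. Gpx2 and Fabp3 overlap Fntb and Zcchc17, respectively, on the other strand.

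**Figure D2:**
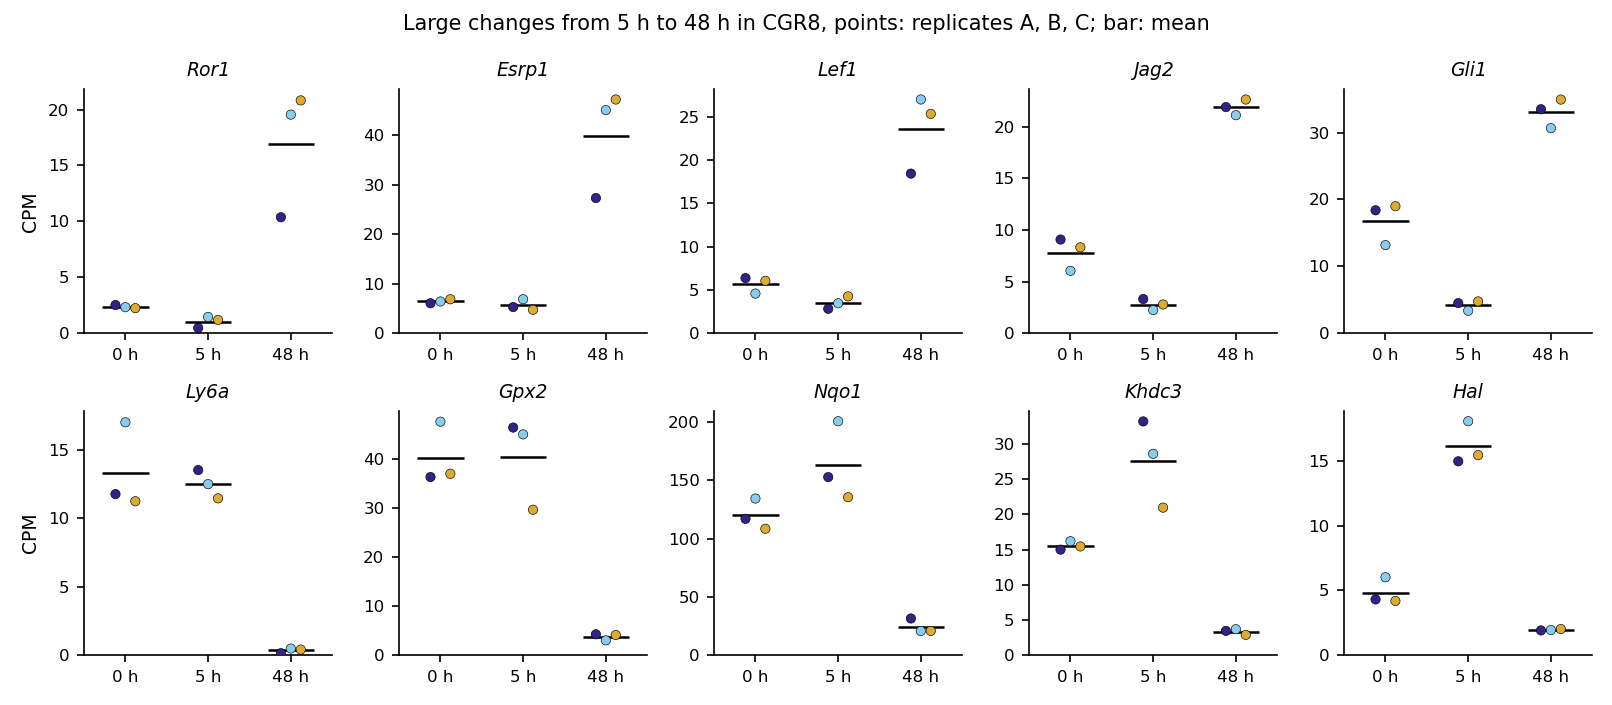
Levels of 10 named genes in CGR8 at 0, 5 and 48 h of cycloheximide, in CPM on linear axes, 1 point per library and a bar at the mean (n = 3 per time). Ror1, Esrp1, Lef1, Jag2 and Gli1 are higher at 48 h than at 5 h in each library, and Ly6a, Gpx2, Nqo1, Khdc3 and Hal are lower in each.

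Chaperones and quality control genes of the ER rose together between 5 h and 48 h. Of the 27 genes tested, 21 were called higher and 1 lower, against 28.9% and 28.6% of all genes. The median log2 change was 0.81, against -0.01 over all genes. The list had been lower at 5 h than at 0 h (median -0.25), with 12 called lower and 2 higher against 27.2% and 24.9% of all genes. At 48 h it was above 0 h (median 0.51), with 19 called higher and 0 lower against 12.2% and 15.6%. The mRNAs summed to 4487, 5084 and 4258 CPM at 5 h and to 7350, 7769 and 7435 CPM at 48 h, with no overlap.

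Many promoters of this class carry the ER stress element, bound by NF-Y and by ATF6 or XBP1. The letters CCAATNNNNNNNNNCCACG were searched on both strands of promoters from RefSeq (GRCm38.p6, 250 bases before to 50 after each start). They were in 9 of the 23 list members with a promoter in the table, and in 37 of all 27025 genes with a promoter (0.137%). The 9 were Hspa5, Hsp90b1, Calr, Canx, Pdia6, Dnajc3, Creld2, Syvn1 and Derl3. All 9 were called higher at 48 h, as were 77.8% of the whole list. The 250 bases before the start are shown for 4 of them that span the list from chaperone to ligase, with the 5 bases at each end of the match in capitals. They lie at chr2:34771840-34772089 (plus strand) for Hspa5, chr10:86705445-86705694 (minus strand) for Hsp90b1, chr14:118937682-118937931 (plus strand) for Dnajc3 and chr19:6046326-6046575 (plus strand) for Syvn1. Hsp90b1 has 2 matches, 1 on each strand, and no match shown overlaps one of the other motifs searched. A match is a description of the letters and does not show binding.
Hspa5: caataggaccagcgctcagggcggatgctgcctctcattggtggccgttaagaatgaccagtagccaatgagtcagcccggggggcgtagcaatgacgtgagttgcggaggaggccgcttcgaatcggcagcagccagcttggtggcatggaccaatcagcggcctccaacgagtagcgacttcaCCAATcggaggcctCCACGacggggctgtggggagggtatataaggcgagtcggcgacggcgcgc
Hsp90b1: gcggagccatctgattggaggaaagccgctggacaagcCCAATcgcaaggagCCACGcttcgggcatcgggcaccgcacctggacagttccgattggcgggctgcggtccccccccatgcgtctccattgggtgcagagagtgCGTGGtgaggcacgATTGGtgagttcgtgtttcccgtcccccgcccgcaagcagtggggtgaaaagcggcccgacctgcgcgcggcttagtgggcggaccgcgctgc
Dnajc3: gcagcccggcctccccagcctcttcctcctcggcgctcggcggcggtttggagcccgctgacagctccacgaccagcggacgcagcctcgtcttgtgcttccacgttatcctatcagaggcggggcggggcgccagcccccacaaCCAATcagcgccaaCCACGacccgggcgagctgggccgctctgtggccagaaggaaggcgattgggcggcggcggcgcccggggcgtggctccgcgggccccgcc
Syvn1: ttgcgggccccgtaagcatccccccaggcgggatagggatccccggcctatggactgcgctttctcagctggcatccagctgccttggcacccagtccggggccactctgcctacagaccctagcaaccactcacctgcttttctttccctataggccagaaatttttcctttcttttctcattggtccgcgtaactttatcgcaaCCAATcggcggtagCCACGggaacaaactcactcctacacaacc

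Hspa5 encodes BiP, the main Hsp70 of the ER lumen and the partner that holds the stress sensors inactive. It stood at 355, 377 and 324 CPM at 5 h and at 811, 892 and 802 CPM at 48 h, with 555, 602 and 619 at 0 h. The 48 h libraries were all above the 0 h libraries and the 5 h libraries all below them (log2 1.24 for 48 h against 5 h, SE 0.10, edgeR adjusted p = 1.21e-07). Hsp90b1, the ER Hsp90 known as Grp94, showed the same order, with 238, 246 and 253 CPM at 5 h and 711, 752 and 733 at 48 h (log2 1.58, SE 0.09, edgeR adjusted p = 1.08e-08). Dnajc3, a co-chaperone of BiP that also restrains PERK, differed in that it had not been called at 5 h against 0 h. It went from 20.5, 22.0 and 22.7 CPM to 56.4, 52.4 and 59.9 CPM (log2 1.37). Hyou1, a nucleotide exchange factor for BiP, rose by 1.14 in log2, and the lectin chaperones Canx and Calr rose by 0.93 and 0.69.

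Among the disulfide isomerases, Pdia4 rose from 145, 176 and 143 to 375, 401 and 385 CPM, Pdia6 by 0.80 and Pdia3 by 0.27 in log2. P4hb was not called (log2 -0.25). Of the machinery that returns misfolded proteins to the cytosol for degradation, Syvn1, Sel1l, Herpud1, Derl3 and Edem1 were called higher and Selenos was not called (log2 -0.14). Syvn1, its ubiquitin ligase Hrd1, stood at 15.4, 15 and 16.1 CPM at 5 h and 47.0, 49.2 and 49.0 at 48 h, and its adaptor Sel1l rose by 1.21 in log2. Herpud1 rose from 6.39, 5.05 and 5.64 to 20.02, 18.9 and 18.3 CPM without passing its 0 h range of 21.3 to 26.3. Derl3 and Edem1 rose by 1.47 and 0.81. Syvn1, Hsp90b1 and Herpud1 each overlap a gene on the other strand.

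Of the sensors and transcription factors, Xbp1, whose mRNA the sensor IRE1 splices, went from 17.0, 15.1 and 14.2 CPM to 54.2, 53.3 and 51.7 CPM, above the 31.1 to 34.0 CPM of 0 h (log2 1.78, SE 0.12, edgeR adjusted p = 3.67e-08). Gene counts do not separate its spliced from its unspliced form. Ern1, which encodes IRE1, rose by 1.00 in log2 (edgeR adjusted p = 0.0019), and Crebrf, a regulator of CREB3 factors, by 1.70. Atf6 was not called (log2 0.21, edgeR adjusted p = 0.166). The only member called lower was Sec61b, a subunit of the translocation channel, at 195, 168 and 130 CPM at 5 h and 128, 120 and 117 at 48 h. Its fall by 0.44 was not called without replicate A at 5 h (log2 -0.31) and was gone once the relation to transcript length was removed (log2 0.02). The list's median was the same with the length relation removed, 0.81.

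**Figure D3:**
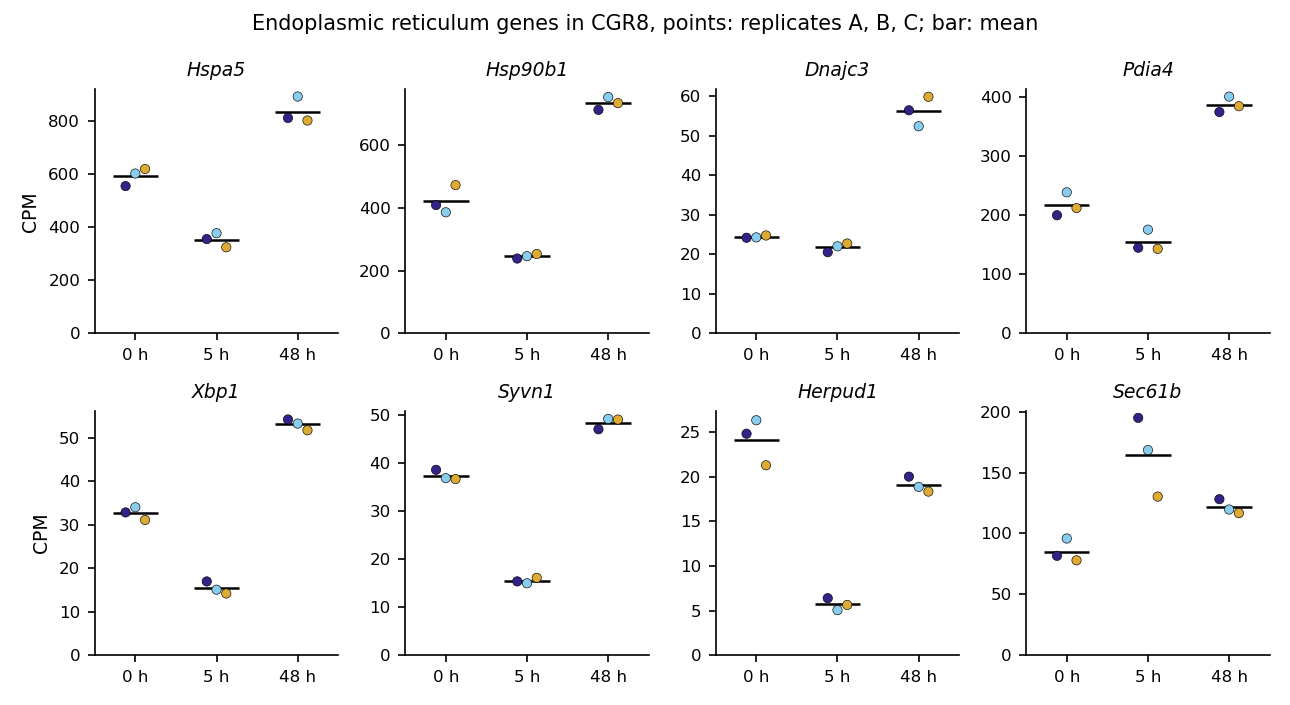
CPM of 8 genes of the ER list in CGR8 at 0, 5 and 48 h, on linear axes, 1 point per library in the order A, B, C and a bar at the mean (n = 3 per time). In the 7 genes other than Sec61b the 48 h points lie above the 5 h points, and in Hspa5, Hsp90b1, Dnajc3, Pdia4, Xbp1 and Syvn1 also above the 0 h points.

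ATF4 raises genes for amino acid import, serine and asparagine synthesis and its own feedback. Of 38 genes tested, 12 were called higher and 12 lower at 48 h than at 5 h (median log2 0.04), again against 28.9% and 28.6% of all genes. The median was -0.02 without replicate A at 48 h and 0.14 without replicate C at 48 h. At 5 h, 26 were called lower than at 0 h, against 27.2% of all genes. At 48 h, 28 were called lower than at 0 h, against 15.6%, with a median of -0.96. Of the acute members, 8 had persisted, 7 had come back in part, 2 were not called against 0 h any more and 1 had overshot. The shares of all acute genes in these classes were 11.5%, 9.5%, 60.9% and 9.2%. Trib3, Chac1 and Nupr1 show how single members differed. Trib3, a pseudokinase that binds ATF4, fell from 40.4, 46.0 and 35.1 CPM at 0 h to 5.72, 5.44 and 4.94 at 5 h and stood at 10.9, 6.41 and 4.77 at 48 h. The 5 h and 48 h levels overlapped and the change was not called (log2 0.46, edgeR adjusted p = 0.183), while with the length relation removed it was (log2 0.75).

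Chac1, which breaks down glutathione, went from 10.7, 13.3 and 10.4 CPM at 0 h to 0.222, 0.736 and 0.311 at 5 h and 2.27, 1.42 and 1.15 at 48 h. The 5 h levels rest on 5, 15 and 8 reads, and the 48 h to 5 h ratio was 4.003 (exact 95% interval for counting error 2.64 to 6.26). Nupr1, a small chromatin-binding stress protein, was the largest fall of the list, from 12.6, 13.1 and 10.1 CPM to 4.40, 1.83 and 1.23 CPM (log2 -2.25, SE 0.28, edgeR adjusted p = 7.97e-06). The letters TGATGNAA of the amino acid response element, to which ATF4 binds with C/EBP partners, were searched likewise. They were in 12 of 31 list members with a promoter and in 4.51% of all genes with a promoter. Of these 12 genes, 3 were called higher and 4 lower, against 31.6% and 31.6% of the whole list. The promoters of Chac1 (chr2:119350992-119351241, plus strand) and Nupr1 (chr7:126625471-126625720, minus strand) are shown because the genes moved in opposite directions with a match in each. The match, on the reverse strand in both, is in capitals apart from the free base, which is in lower case.
Chac1: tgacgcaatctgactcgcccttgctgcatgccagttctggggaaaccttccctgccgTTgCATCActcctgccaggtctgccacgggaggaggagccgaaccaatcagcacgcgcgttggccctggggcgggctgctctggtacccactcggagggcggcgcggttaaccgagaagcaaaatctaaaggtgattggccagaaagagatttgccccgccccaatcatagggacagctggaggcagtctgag
Nupr1: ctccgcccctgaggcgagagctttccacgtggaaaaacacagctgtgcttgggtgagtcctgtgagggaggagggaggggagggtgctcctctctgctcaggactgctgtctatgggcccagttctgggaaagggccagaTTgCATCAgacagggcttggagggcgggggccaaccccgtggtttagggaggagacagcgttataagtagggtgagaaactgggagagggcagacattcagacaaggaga

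The members called higher included transporters and growth regulators. Slc38a2, the amino acid transporter SNAT2, went from 94.3, 133 and 158 CPM to 434, 466 and 538 CPM, above its 0 h range of 249 to 294. Sesn2, a leucine sensor that holds back mTORC1, went from 55.6, 57.5 and 56.4 CPM to 174, 167 and 161 CPM, and was not called against 0 h. Slc7a1, Slc1a4 and Slc7a5 rose by 0.81, 0.63 and 0.45 in log2. Other transporters of the list were called lower: Slc7a11, the cystine exchanger, went from 10.2, 13.1 and 8.55 to 6.23, 6.68 and 6.75 CPM (log2 -0.69, edgeR adjusted p = 0.0132), and its partner chain Slc3a2 fell by 0.31. The glycine transporter Slc6a9 was at 1, 3 and 3 reads at 5 h and 47, 9 and 18 at 48 h, a ratio of 9.26 (exact 95% interval 4.28 to 23.8). The death-associated factor Ddit3, known as CHOP, rose by 1.06 and the hormone Stc2 by 1.71, and Ddit3 overlaps Mars on the other strand. Atf4 mRNA itself was at 86.4, 55.6 and 61.8 CPM at 5 h and 93.5, 88.4 and 76.7 at 48 h. These groups overlapped, and the call (log2 0.34, edgeR adjusted p = 0.0394) was lost in 6 alternative analyses, among them the 6 libraries fitted alone.

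The members called lower included enzymes of amino acid synthesis. Psph, which makes serine in the last step of its pathway, fell from 70.1, 82.7 and 57.6 CPM to 30.2, 24.1 and 21 CPM (log2 -1.48, SE 0.18, edgeR adjusted p = 6.29e-06). Phgdh and Psat1, the preceding enzymes, fell by 0.90 and 0.82 in log2, asparagine synthetase Asns by 0.89, and the folate enzyme Aldh1l2 by 0.89. Pck2 fell by 0.87. Shmt2, Mthfd2 and Pycr1 were not called, with log2 values of -0.16, 0.09 and 0.05.

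Of 26 genes for the synthesis and uptake of cholesterol, which SREBP2 controls, 4 were called higher and 13 lower (median -0.39). The shares of all genes were 28.9% and 28.6%. Against 0 h, 17 of the 26 were called lower at 48 h, beside 15.6% of all genes. The mevalonate enzymes Pmvk, Mvd and Fdps fell by 0.96, 0.88 and 0.80 in log2, and the later enzymes Msmo1, Tm7sf2 and Fdft1 by 0.87, 0.70 and 0.66. Msmo1 was at 115 CPM in replicate A at 48 h and at 63.3 and 68.1 in B and C, against 137 to 160 CPM at 5 h. Hsd17b7, also of the later steps, went from 10.3, 10.4 and 13 to 21.5, 18.7 and 20.5 CPM (log2 0.84). The rise of the regulator Srebf2 (log2 0.40) was not called with the length relation removed (0.05), without replicate A at 5 h (0.31) or without replicate A at 48 h (0.30). Sqle and Insig1 were not called, with log2 values of -0.01 and 0.01. The letters TCACNCCAC of the sterol regulatory element were searched in promoters likewise. They were in 1 of 18 list members with a promoter, Hmgcs1, which was not called, and in 1.44% of all genes with a promoter.

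NRF2 is the transcription factor of the antioxidant response and is itself short-lived. Of 25 antioxidant genes under it, 3 were called higher and 11 lower at 48 h than at 5 h (median -0.39). The shares of all genes were 28.9% and 28.6%. That median was -0.65 without replicate C at 5 h or without replicate A at 48 h, and -0.25 without replicate C at 48 h. Against 0 h, 16 were called lower at 48 h, beside 15.6% of all genes. At 5 h, 11 had been called lower and 5 higher than at 0 h, against 27.2% and 24.9% of all genes. Nqo1, a quinone reductase, stood at 153, 201 and 136 CPM at 5 h, above its 109 to 134 CPM at 0 h, and at 31.5, 20.7 and 20.8 CPM at 48 h (log2 -2.74, SE 0.18, edgeR adjusted p = 3.38e-08). Gpx2, given above, fell the most, and neither gene overlapped between the times. Thioredoxin, Txn1, went from 706, 656 and 535 to 270, 239 and 217 CPM, malic enzyme Me1 fell by 1.22 and Gsta4, a glutathione transferase, by 1.21 in log2. Pgd, Prdx1, Taldo1 and the ferritin chain Fth1 fell by 0.94, 0.82, 0.82 and 0.73. Gclc and Gclm, the subunits of the enzyme that starts glutathione synthesis, were among the 3 called higher, at 0.59 and 0.42, and Abcc1 was the third at 0.64, which became -0.07 with the length relation removed. The factor's own mRNA, Nfe2l2, and that of its inhibitor Keap1 were not called, at -0.05 and 0.18.

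Targets of p53, the transcription factor of the DNA damage response, rose. Of 28 genes, 19 were called higher and 3 lower at 48 h than at 5 h (median 0.71). The shares of all genes were 28.9% and 28.6%. Against 0 h, 17 of the 28 were called higher at 48 h, beside 12.2% of all genes. Zmat3, an RNA-binding target, went from 41.9, 47.9 and 51.0 CPM to 173, 160 and 181 CPM, above its 101 to 112 CPM at 0 h (log2 1.87, SE 0.12, edgeR adjusted p = 2.11e-08). Eda2r, a receptor of the TNF family, went from 28.4, 41.7 and 48.4 to 89.4, 92.0 and 107 CPM. Plk2, Bbc3, Gtse1 and Perp rose by 1.20, 1.15, 1.10 and 1.05 in log2. Cdkn1a, the p21 cell cycle inhibitor, rose by 0.51 from 69.7, 63.8 and 58.0 to 98.3, 87.0 and 86.4 CPM. The negative regulator Mdm2 was not called (log2 0.19, edgeR adjusted p = 0.0844). The 3 called lower were Rrm2b, Tigar and Sesn1, by 0.66, 0.42 and 0.33.

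At 5 h against 0 h, 13 of 26 naive pluripotency genes were called lower and 8 higher, beside 27.2% and 24.9% of all genes. From 5 h to 48 h, 15 were called higher and 5 lower (median 0.37), beside 28.9% and 28.6% of all genes. With the length relation removed, 3 were lower. Klf4, a transcription factor downstream of LIF, stood at 149, 165 and 163 CPM at 5 h and at 396, 376 and 380 at 48 h, above its 242 to 250 CPM at 0 h (log2 1.27, SE 0.10, edgeR adjusted p = 1.21e-07). Esrrb, a nuclear receptor, went from 408, 465 and 447 to 1105, 840 and 840 CPM, around its 874 to 887 CPM at 0 h, and Tfcp2l1 and Sox2 rose by 0.78 and 0.64 in log2. Dppa5a fell from 2029, 1772 and 1332 to 683, 668 and 529 CPM (log2 -1.45, -0.83 with the length relation removed). The Nodal co-receptor Tdgf1 fell from 884, 883 and 829 to 375, 435 and 429 CPM, around its 0 h values of 389 to 416. Pou5f1, which encodes Oct4, fell by 0.52 from 1296, 995 and 809 to 706, 790 and 665 CPM, and the call was lost without replicate A at 5 h (log2 -0.34) and with the length relation removed (-0.24). Nanog was not called (log2 -0.22, edgeR adjusted p = 0.094).

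Genes of the formative and primed states, which follow the naive state, were called higher for 11 and lower for 3 of 19 (median 0.45). With the length relation removed 6 were lower. Of all genes, 28.9% were called higher and 28.6% lower. At 5 h, 10 of the 19 had been called lower and 4 higher than at 0 h (median -0.44), against 27.2% and 24.9%. At 48 h, 8 were called higher and 5 lower than at 0 h (median 0.34), against 12.2% and 15.6%. Fgf5, Fgf8, Wnt3 and Cer1 of this list were under 1 CPM in each of the 6 libraries. Dnmt3b, the de novo DNA methyltransferase, rose from 162, 197 and 187 to 459, 607 and 619 CPM (log2 1.63, SE 0.12, edgeR adjusted p = 8.48e-08) and was also above its 240 to 259 CPM at 0 h. Zic2 went from 75.9, 86.1 and 86.5 to 154, 212 and 217 CPM, and Etv5 rose by 1.15 in log2. The Nodal inhibitor Lefty1 rose by 3.15 from under 1 CPM. For Dnmt3b, Zic2 and Lefty1 replicate A was the lowest 48 h library, and the calls were kept without it. Etv4 and Dusp6, targets of ERK signalling, fell by 1.02 and 1.00. Otx2, a factor of the formative state, was at 15.8, 15.9 and 16.0 CPM at 5 h and 11.4, 22.8 and 23.1 at 48 h. It was in the persisted class (log2 0.26, edgeR adjusted p = 0.262), and without replicate A at 48 h it was called higher, at log2 0.53.

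Of 23 Wnt targets and feedback genes, 17 were called lower and 0 higher at 5 h than at 0 h, against 27.2% and 24.9% of all genes. At 48 h, 15 were called higher and 5 lower than at 5 h (median 0.59), against 28.9% and 28.6% of all genes. Axin2, the feedback scaffold of the pathway, went from 82.0, 78.3 and 80.8 CPM at 0 h to 36, 39.7 and 40.9 at 5 h and 88.3, 90.0 and 89.2 at 48 h (log2 1.20, SE 0.11, edgeR adjusted p = 3.31e-07). The transcription factor Sp5 and the receptor ligase Znrf3 came back likewise, by 1.15 and 0.99 in log2. Lef1, the DNA-binding partner of beta-catenin, passed its 0 h range of 4.60 to 6.39 CPM, going from 2.84, 3.48 and 4.28 to 18.4, 27.0 and 25.3 CPM. Cdx1 fell further, from 34.7, 33.3 and 24.8 to 13.0, 8.76 and 7.94 CPM, and the inhibitors Apcdd1 and Dkk1 fell by 1.30 and 1.25.

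Interferon-stimulated genes were called higher for 5 and lower for 10 of 21 (median -0.30), against 28.9% and 28.6% of all genes. Of the 32 listed, 12 were under 1 CPM in each of the 6 libraries, Isg15, Ifit1 and Mx1 among them. The counts therefore cover only part of the list. Besides Ly6a, Oas1a, a sensor of double-stranded RNA, fell from 50.4, 54.5 and 38.6 to 12.7, 16.4 and 14.2 CPM, and the class I gene H2-K1 from 8.61, 7.16 and 5.64 to 2.93, 1.60 and 2.22 CPM. Ddx58, the RIG-I sensor, rose by 0.96 in log2. Related genes of the class I and Oas families can share reads.

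The genes of ribosomes, mitochondria and proteasomes rose at 5 h and fell back by 48 h. Of all genes, 24.9% were called higher at 5 h than at 0 h. From 5 h to 48 h, 28.6% of all genes were called lower and 28.9% higher. Of 77 cytosolic ribosomal protein genes, 67 had been called higher at 5 h than at 0 h, and 64 were called lower and 0 higher at 48 h than at 5 h (median -0.85), which left a median of 0.02 against 0 h. The mRNAs summed to 163030, 142030 and 106410 CPM at 5 h and 79390, 88590 and 74964 CPM at 48 h, with replicate A the highest at 5 h. Rps12 went from 3319, 3157 and 2177 to 1072, 1180 and 949 CPM. Among 77 mitochondrial ribosomal protein genes 67 were called lower and 0 higher (median -0.91), among 76 nuclear genes of the respiratory chain 64 lower and 1 higher (median -0.82), and among 32 proteasome subunits 27 lower and 1 higher (median -0.69). Psma7, a core subunit, fell by 1.45 in log2, and the respiratory subunit Ndufb9 by 1.54, while Sdha and the proteasome receptor Adrm1 rose by 0.40 and 0.53. The mRNAs made inside mitochondria moved against these lists: 7 of 9 were called higher (median 0.87), but 4 without replicate A or without replicate B at 5 h and 4 without replicate C at 48 h. Among them mt-Co1 went from 995, 1045 and 1748 to 3007, 2908 and 3727 CPM. Of the 13 such genes, 6 were under 1 CPM in each of the 6 libraries, mt-Co2 and mt-Co3 among them. The counts therefore cover only part of this class, and the cause was not tested. Ribosomal protein genes have many pseudogene copies with which they can share reads.

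Length moved with these results. Genes were put in 5 equal groups by exonic length. In the shortest group (60 to 1748 bases) the median log2 change from 5 h to 48 h was -0.56, and it ran through -0.27, -0.02 and 0.25 to 0.51 in the longest (7059 to 123179 bases). From 0 h to 5 h it ran from 0.50 to -0.43. Against the mean of 0 h, the shortest and longest groups stood at 0.49 and -0.59 in replicate A at 5 h, 0.35 and -0.37 in B, 0.26 and -0.20 in C, and between -0.05 and 0.17 in the 48 h libraries. With each library's relation to length removed, 8356 genes were called, 48 ribosomal protein genes were lower and 1 higher (median -0.45), and the other medians were -0.68 for mitochondrial ribosomal proteins, -0.43 for the respiratory chain, -0.49 for the proteasome and 1.33 for the mitochondrial mRNAs. Of 1944 acute genes in that fit, 1443 (74.2%) had reverted. The part of RNA quality or of any other source of the length relation in these results was not tested.

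**Figure D4:**
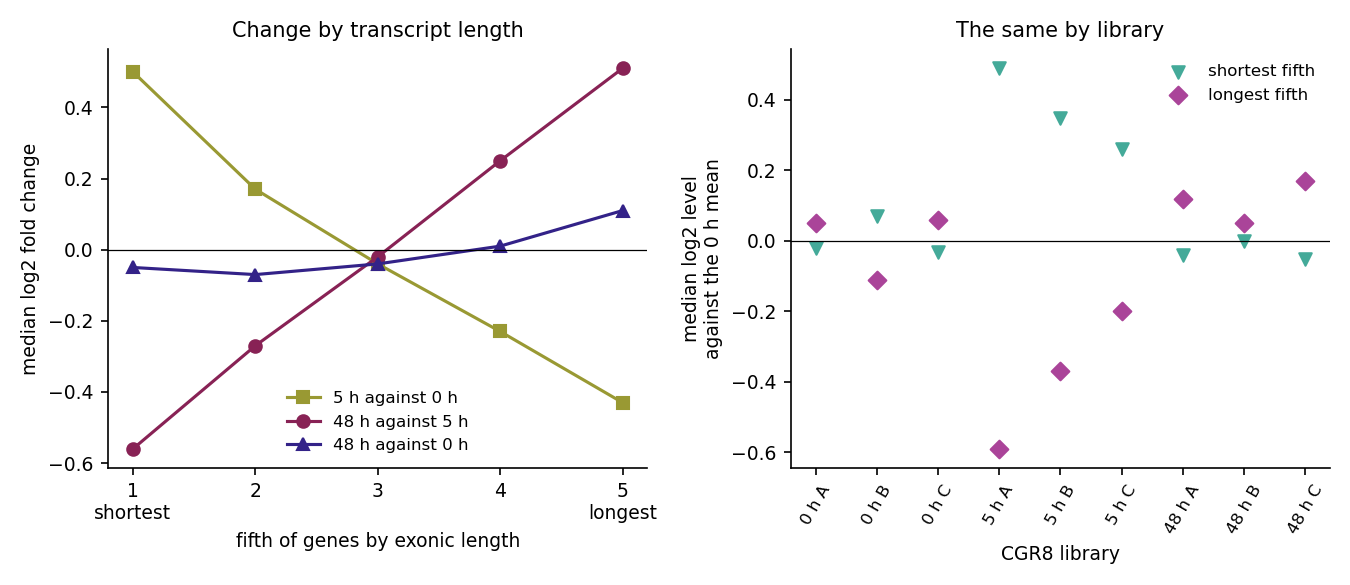
Relation of the changes to exonic length in CGR8. Left, median log2 fold change in 5 groups of genes from shortest to longest for the 3 contrasts; right, median log2 level of the shortest and the longest group in each library, relative to the 0 h mean. The medians for 48 h against 5 h rise from -0.56 to 0.51 and those for 5 h against 0 h fall from 0.50 to -0.43, and replicate A at 5 h has the widest gap between the groups.

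Genes of DNA replication and S phase rose at 5 h and fell back by 48 h. Of 46, 27 were called higher and 2 lower at 5 h than at 0 h (median 0.40), against 24.9% and 27.2% of all genes. From 5 h to 48 h, 31 were called lower and 5 higher (median -0.48), against 28.6% and 28.9% of all genes. With the length relation removed 3 were higher and the median was -0.50, and 3 were higher also without replicate C at 5 h, B at 48 h or C at 48 h. At 48 h against 0 h, 2 were called higher and 11 lower (median -0.03), against 12.2% and 15.6% of all genes. Ccne2, a cyclin that starts S phase, went from 33.7, 38.2 and 49.7 to 7.15, 8.50 and 9.21 CPM, below its 11.2 to 20.5 CPM at 0 h. Gins2, of the replicative helicase, fell from 160, 143 and 104 to 38.4, 40.8 and 35.8 CPM, and Tk1 and Tyms, which supply nucleotides, fell by 1.47 and 1.30 in log2. Rfc3, of the clamp loader, fell by 1.31. Of 47 genes of G2 and mitosis, 17 (36.2%) were called higher and 10 (21.3%) lower at 48 h than at 5 h (median 0.18). These shares were not far from the 28.9% and 28.6% of all genes. Among the 47 were Mki67 at 1.25 and Ccnb2 at -1.22. Without replicate B at 5 h 11 were higher, and with the length relation removed the median was 0.08. Of 21 replication-dependent histone genes, whose mRNAs mostly lack poly(A) tails, 9 were called lower and 0 higher (median -0.75), with a median of 1.59 at 5 h against 0 h. With the length relation removed 5 were called lower (median -0.31), and without replicate B at 5 h the median was -0.46. These genes can share reads with one another.

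**Figure D5:**
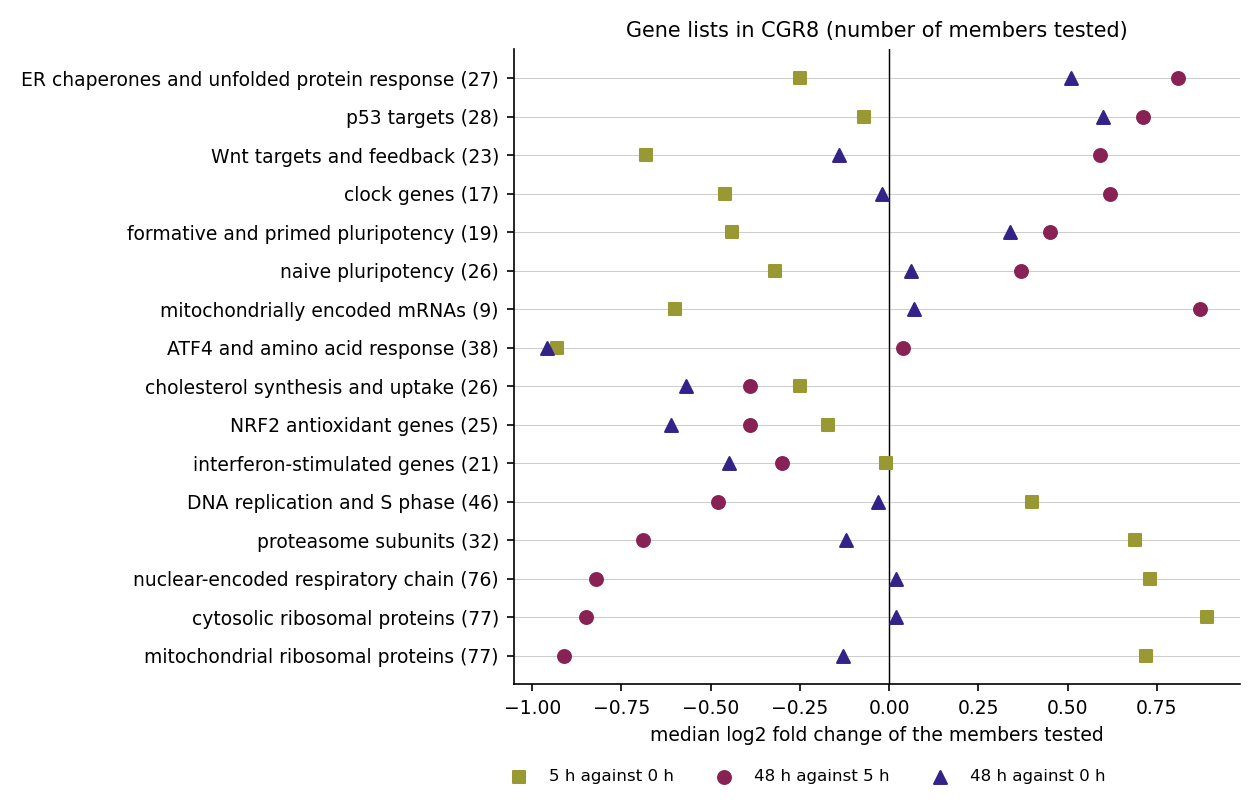
Median log2 fold change of 16 gene lists in CGR8 for 5 h against 0 h, 48 h against 5 h and 48 h against 0 h, 1 point per list and contrast. The ER list is at -0.25, 0.81 and 0.51, the cytosolic ribosomal proteins are at 0.89, -0.85 and 0.02 and the ATF4 list is at -0.93, 0.04 and -0.96.

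The persisted class held 201 falls and 88 rises. Eomes, a T-box factor of trophoblast and mesendoderm, went from 22.8, 21.5 and 21.5 CPM at 0 h to 4.08, 4.27 and 4.86 at 5 h and stood at 4.11, 4.36 and 2.84 at 48 h, with overlapping 5 h and 48 h levels (log2 -0.22, edgeR adjusted p = 0.255). Il6ra, a cytokine receptor chain, was at 15.5 to 18.3 CPM at 0 h, 2.84, 3.92 and 4.12 at 5 h and 4.51, 3.88 and 3.54 at 48 h. Zc3h8 and the splicing kinase Clk1 were persistent rises, with log2 values against 0 h of 1.34 and 1.23 at 5 h and 1.12 and 1.09 at 48 h. The deepened falls included Fcgr2b, an Fc receptor, from 10.2 to 12.5 CPM at 0 h to 4.66 to 5.64 at 5 h and 2.16 to 3.13 at 48 h, Map1a, a microtubule protein, with log2 -0.85 after 5 h, and Snn with -0.62. Snn overlaps Litaf and Txndc11 on the other strand.

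A further 520 genes (3.26%) were late: not called at 5 h, and called with at least a 2-fold change at 48 h against both 5 h and 0 h. There were 234 late rises and 286 late falls. Beside Esrp1, the rises included Gad1, the enzyme that makes GABA, from 2.31, 2.26 and 2.53 to 10.7, 9.44 and 11.3 CPM, Pnma5, of the paraneoplastic antigen family, from 11.4, 8.73 and 11 to 39.1, 46.9 and 44 CPM, and Ephx1, an epoxide hydrolase, by 2.06 in log2. Beside Ly6a, Gpx2 and Fabp3, the falls included Ggt1, which cleaves extracellular glutathione, from 13.7, 11.6 and 10.3 to 2.53, 1.57 and 1.60 CPM. At a mean of at least 5 CPM, 103 genes were late.

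The change from 5 h to 48 h was then set against the same change in NIH/3T3, by an interaction test on all 30 libraries. It differed for 4565 of 17549 genes (26%), of which 1620 were more positive and 2945 more negative in CGR8. That split of 35.5% positive was not stable. It was 44.8% with RLE factors, 45.4% with library size alone, 45.9% in DESeq2, 49.3% with the length relation removed and 51.1% once genes averaging under 5 CPM were left out. It was 60% without CGR8 replicate A at 5 h and 58.7% without CGR8 replicate B at 5 h. The counts per list that follow, and the shares of all genes beside them, come from the main fit alone. They were not repeated under these alternatives. In the ER list 12 of 27 genes were more positive in CGR8 and 0 more negative, against 9.23% and 16.8% of all genes, with medians of 0.77 in CGR8 and 0.13 in NIH/3T3. In the NRF2 list 13 of 25 were more negative in CGR8 and 1 more positive, with medians of -0.44 and 0.23. Of the 21 interferon-stimulated genes, 15 were more negative in CGR8 and 0 more positive, with medians of -0.34 and 0.73. The p53 targets had medians of 0.67 in CGR8 and 0.92 in NIH/3T3, and 8 of 28 were more negative and 2 more positive in CGR8.

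Single genes showed the difference in levels. The log2 change of Ly6a was -5.20 in CGR8 and 0.21 in NIH/3T3. Lef1 rose by 2.69 in CGR8 and had a log2 change of -0.50 in NIH/3T3, and Ror1 by 3.96 against 0.61.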

How the data were processed

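Per the labels' protocols, column-purified RNA went into a stranded mRNA ligation kit. The deposited values are whole-number counts of reads for 57186 genes, not normalized, with a column for each library. The submitters' processing notes name STAR, DESeq2 and GRCm39, without versions or roles. The use of strand in counting is not given in the sources used here. Columns were assigned by their labels, and 0 columns of samples were left unused. Symbols for 51880 identifiers (90.7%), exonic lengths and overlaps came from GENCODE M21 on GRCm38, so gene coordinates are not given, and promoters came from RefSeq on GRCm38.p6.

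In R 4.3.3, edgeR 4.0.16 fitted 1 coefficient per time to the 15 CGR8 libraries, after filterByExpr (minimum count 10, minimum total 15) and TMM scaling. Contrasts were tested by the quasi-likelihood F test with Benjamini-Hochberg adjustment over all genes tested, at 0.05, and the line difference as an interaction on 30 libraries. SE is the standard error of a log2 fold change. Totals of 22.5 to 27.3 M counts make genes under about 1 CPM the least precise, and intervals cover counting error only. The test was also run on simulated counts with independent noise, few changed genes and no relation to length. That setting is simpler than these data, so the run checks the code and not the calls given here.

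The comparison and the 46 gene lists, of which those most relevant are described, were chosen with earlier results of these data known, and several lists share members. Named genes are the 12 largest called rises and falls with no overlap between groups and at least 10 CPM on average in whichever group was higher, without predicted genes, up to 3 genes per class and direction, 4 late genes per direction, and, per list, the largest called changes and the regulators, with up to 8 further members of the lists described in most detail. Other members given with a log2 value only were added to account for a list. Alternatives were RLE factors, library size alone, DESeq2 1.42.0, other filters, other definitions of acute genes, limma's voom (limma 3.58.1) with sample weights, the replicate letter as a block, the 6 libraries alone, each library left out and, added after seeing the data, removal of each library's relation to length. Some results for single genes are not reported here.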

Additional observations from a re-analysis of the deposited data

Results flagged for a closer look

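For 4565 genes the interaction test (edgeR, adjusted p under 0.05) called a difference between the lines in the change from 5 h to 48 h. Among the largest differences towards a more positive change in CGR8, for genes of at least 10 CPM in both lines, were 3.35 in log2 for Ror1, 3.19 for Lef1 and 3.17 for Emp1, a membrane protein of epithelia. Emp1 changed by 1.5 in CGR8 and by -1.68 in NIH/3T3. The largest towards a more negative change were -5.41 for Ly6a, -3.25 for Tor4a, -2.87 for the interferon-induced ligase Rnf213 and -2.85 for Xaf1, also interferon-induced. Within CGR8, Rnf213 and Xaf1 were not called between 5 h and 48 h (log2 -0.63 and -0.27), and their groups overlapped.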

How the results depend on the processing

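Of the values of the 214 named genes under the alternatives, 3154 kept direction and call, 31 kept direction and lost the call, 13 gained it and 12 changed sign, most of them close to 0. The sign changes were, in log2, Zc3h8 (0.0144 with voom, 0.16 with the length relation removed), Clk1 (0.10 with voom), Il6ra (-0.30 with length removed, and -0.0263 to 0.242 with a library left out), Nfe2l2 (0.0275 with library size alone, and -0.217 to 0.0446 with a library left out, positive without replicate B or C at 48 h), and, with length removed, Sec61b (0.0222), Abcc1 (-0.0663), Atf6 (-0.257) and Nanog (0.0455). The cause was not tested. A filter at a mean of 5 CPM, which tests fewer genes, gave 1588 genes with a 2-fold change, 974 reverted, 84 persisted, 9 deepened and 103 late. Taking all 8302 genes called at 5 h as acute gave 6097 reverted (73.4%), 1013 persisted and 218 deepened, and acute genes of 2 h gave 55 deepened. Voom with sample weights gave 7657 line differences. Leaving out 1 library gave 8086 to 9439 called genes, 3107 to 4224 with a 2-fold change, 1635 to 2500 reverted, 245 to 326 persisted, 19 to 45 deepened, 448 to 594 late and 3898 to 4739 line differences. Scaling by RLE factors or library size gave 9160 and 9137 called genes, DESeq2 9020 and voom 10273. Same-letter libraries of 5 h and 48 h deviated together with r of -0.01, 0.01 and 0.28, so the letters were not taken to pair the libraries. The replicate block gave 9193 called genes, 3544 with a 2-fold change, 2011 reverted, 279 persisted, 35 deepened, 524 late and 4510 line differences. Genes of a few reads, such as Slc6a9 at 5 h, are limited by depth.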

Other observations

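The counts of other lists stand beside 28.9% of all genes called higher and 28.6% called lower at 48 h than at 5 h. At 5 h against 0 h, 27.2% of all genes were called lower. Of 17 clock genes, 10 were called higher at 48 h than at 5 h (median log2 0.62), after 8 had been called lower at 5 h than at 0 h. With the length relation removed, 9 clock genes were higher and 1 lower (median 0.38). Of 20 imprinted genes, 11 were called higher (median 0.61), among them Peg3, a zinc finger protein, which was at 16.3, 31.1 and 39.0 CPM at 5 h and at 87.7, 91.7 and 116 CPM at 48 h. With the length relation removed the imprinted list had 9 higher and 2 lower (median 0.38). Of 21 heat shock chaperones, 10 were called higher and 3 lower, with log2 changes of 1.66 for Hspa1b and -1.07 for Hspe1, a partner of the mitochondrial Hsp60. The median of 0.34 was 0.14 with the length relation removed. Of 17 genes of the BCL2 family, which controls apoptosis, 3 were called higher and 9 lower (median -0.43). Of 17 nonsense-mediated decay factors, 10 were called higher, among them Upf3b at 0.87, and 4 were called lower, among them Magoh at -0.70 (-0.13 and not called with the length relation removed). The median was 0.42. With the length relation removed, 6 of these factors were higher and 2 lower (median 0.25), and without replicate A at 48 h 2 were lower.

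Of 45 ribosome biogenesis genes, 13 (28.9%) were called higher and 12 (26.7%) lower within CGR8, close to the 28.9% and 28.6% of all genes. Their median was 0.06, 0.02 without replicate C at 5 h and 0.10 without replicate A at 48 h. Between the lines, 29 of these genes were called more positive in CGR8 and 2 more negative, against 9.23% and 16.8% of all genes. Their median in NIH/3T3 was -0.47. These counts between the lines come from the main fit alone and were not repeated under the alternatives. The 11 two-cell-like genes tested had a median of 0.77 in CGR8 and 2.76 in NIH/3T3 in the fit of both lines. In CGR8, 5 were called higher, and 3 without replicate A or C at 5 h or without replicate B at 48 h. Most of the list was near the floor: 13 of 21 members, Usp17la with the largest rise among them, stayed under 1 CPM in the 6 libraries. The genes tested summed to 15.3, 8.49 and 13.4 CPM at 5 h and 12.7, 19.8 and 13.8 at 48 h, which overlap.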
